A study of Arabidopsis thaliana with 12 samples.

Results

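The transcripts described here are those whose signal was higher in Col-0 seedlings 60 min after cordycepin than before it. Members were chosen by measured values, from the means of 3 arrays per group. A probe set was taken if its mean in Col-0 at 60 min exceeded that at 0 min by 1 or more on the log2 scale, that is at least 2-fold, and if its mean in xrn3-8 at 0 min was less than 1 above that in Col-0 at 0 min. COR15A and PDF1.2, which also met these conditions, were left out by name. Of 22746 probe sets, 108 were members. Of these 108, 64 have exactly 1 named gene, 1 is listed with several genes, and 43 are not listed in the probe table and are unnamed here. All but 1 of the members are on probe sets that are not marked as able to cross-hybridize.

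Wild-type Arabidopsis thaliana seedlings of the Col-0 accession and seedlings of the xrn3-8 genotype were grown on plates in long days and harvested at 14 days. Each genotype was sampled before treatment (0 min, labelled control) and 60 min after 150 mg/l cordycepin, with 3 biological replicates per group and 12 arrays in all. The labels list no seedlings handled for 60 min without cordycepin, so the effects of the drug, of time and of handling cannot be told apart. The labels do not say from which plants the replicates came, nor what the xrn3-8 change does to the gene, and XRN3 is not on a named probe set, so the genotype was not checked on the arrays.

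Cordycepin is an analogue of adenosine that ends an RNA chain once it is built in, and it is used in plants to stop transcription and follow how fast existing transcripts are lost. A microarray reports each transcript relative to the rest of the RNA on the array, so a long-lived transcript can gain in share while short-lived ones are lost; whether this applied to these transcripts was not tested. XRN3 is a nuclear exoribonuclease that digests the RNA still attached to the polymerase after a transcript has been cut at its end, and it takes part in ending transcription. The seedling samples hold all organs, so that fewer cells of a type and less RNA per cell cannot be told apart.

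The deposited log2 signals ran from 1.74 to 13.22, and the median of an array lay between 4.63 and 4.87. Within a group, arrays correlated at 0.9952 to 0.9977 (Pearson, across probe sets). Of the leaf photosynthesis markers, 2 of 9 had a named probe set, the Rubisco activase gene RCA and the antenna protein gene LHCB4.2, with mean log2 signals of 11.4 to 12.9 over all arrays. The single measured root marker, the root hair expansin gene EXPA7, stood at 3.37, near the lower quartile of the arrays (2.98 to 3.1). EXPA7 was higher after cordycepin in Col-0 (0.47, limma adjusted p = 0.00183) and not called in xrn3-8 (-0.003), and LHCB4.2 was lower in both (-1.27 and -0.67). The part of these markers in the results below was not tested. None of the 7 seed and 5 flower markers had a named probe set. The Bacillus subtilis control probe sets, which measure added bacterial RNA where it was added, differed between the times: the 12 of them with a mean of at least 4 rose from 4.91 to 5.37 in Col-0 (0.46) and from 4.83 to 5.52 in xrn3-8 (0.69). Hybridization controls rose by 0.2 and 0.27. These shifts moved together with the comparison over time, and every direction over time below is relative to the array as deposited unless another centring is named.

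In Col-0 the change from 0 to 60 min ranged from 1 to 2.003 among the members, with a median of 1.12, against 0.07 for all probe sets. All 108 were called higher (limma, adjusted p under 0.05; 26.3% of all probe sets were called higher), and in all 108 the arrays did not overlap between the times (31.9%), which the choice of members fixes. The lower and upper quartiles of the changes were 1.06 and 1.24, and 10 were 1.5 or more. Just inside the limit were the pseudogene AT2G03540 (1.01), AT4G16660 (1) and AT1G09980 (1), and just outside it were the sulfurtransferase gene STR18 and 2 unnamed probe sets (0.997 each). The median SD over 3 arrays was 0.144 before and 0.124 after cordycepin in Col-0, and 0.118 and 0.122 in xrn3-8.

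The question put to the members was how they stood in xrn3-8 at both times. The change under cordycepin in xrn3-8 shares no array with the rise in Col-0 that chose them. In xrn3-8, 85 of the 108 were called higher after cordycepin (78.7%, against 24.5% of all probe sets), 2 were called lower (against 15.9%) and 21 were called in neither direction (against 59.6%; limma over all 22746 probe sets and 12 arrays). The median change was 0.7 (lower and upper quartile 0.36 and 0.9), against 0.09 over all probe sets, 99 of the 108 changes were above 0 (64.9% of all probe sets), and the SE of a change was 0.075 to 0.18. A change of 1 or more was called in 21 members (19.4%, against 0.198% of all probe sets). The arrays at 60 min all lay above the arrays at 0 min in 87 members (31.5% of all probe sets), and all below in 2 (17.8%).

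**Figure D1:**
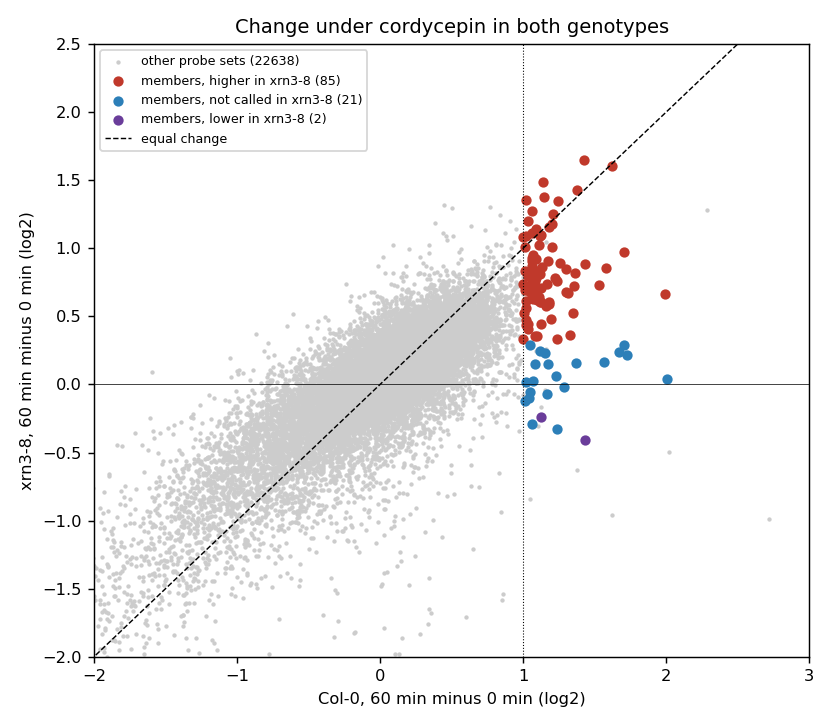
Change from 0 to 60 min (log2) in Col-0 on the horizontal axis and in xrn3-8 on the vertical axis, 1 point per probe set, with axes drawn from -2 upward so that stronger decreases are not shown. The members start at 1 on the horizontal axis because they were chosen there; 85 were called higher in xrn3-8, 21 not called and 2 called lower.

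**Figure D2:**
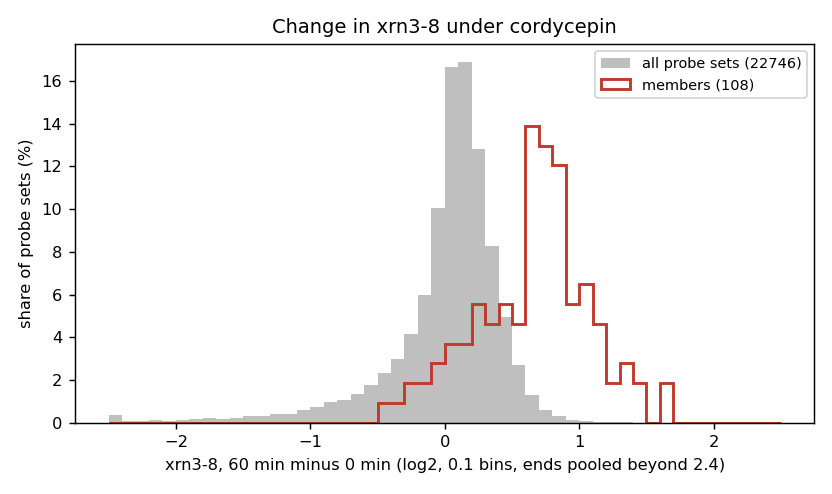
Distribution of the change in xrn3-8 from 0 to 60 min (log2, in bins of 0.1) as a share of the 22746 probe sets (grey) and of the 108 members (line). The members have a median of 0.7 and all probe sets one of 0.09.

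The rule also capped the level in xrn3-8 before cordycepin. This kept out 12 probe sets with a rise of 1 or more in Col-0. Their median change in xrn3-8 was -0.24 (lowest -0.99, highest 1.28). Of the 12, 3 were called higher, 5 lower and 4 not called, against 24.5%, 15.9% and 59.6% of all probe sets. Nothing is read from these counts, because a high xrn3-8 level at 0 min, from which the change starts, kept these probe sets out. Over the 120 probe sets chosen by the Col-0 rise alone, 88 were called higher and 7 lower in xrn3-8, with a median of 0.69. AT5G01700, the one of these 12 with the largest rise in Col-0, had log2 signals of 3.65, 3.74 and 3.89 before and 6.53, 6.39 and 6.52 after cordycepin in Col-0, and 7.56, 7.58 and 7.58 before and 6.56, 6.61 and 6.58 after it in xrn3-8. The change in xrn3-8 (-0.99 ± 0.08 SE) is given as a description, since the high xrn3-8 level at 0 min kept the gene out. ATGSTF13, a glutathione transferase gene also kept out by that condition, rose in both genotypes, by 1.09 in Col-0 and by 0.90 in xrn3-8. The other phi class glutathione transferase gene measured of 13 in a list, GSTF4, rose by 0.35 in Col-0 (adjusted p = 0.0266) and was not called in xrn3-8 (0.11). Over all probe sets, 45 rose by 1 or more in xrn3-8. Of these, 23 also rose by 1 or more in Col-0 and 21 were members, while 19 of the other 22 were called higher in Col-0 by less than 1.

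Calls in xrn3-8 depended on the scaling. As deposited, 3 of the 4 measured housekeeping genes were themselves called higher over time in each genotype. With arrays centred on the 12 brighter Bacillus subtilis controls, the median change of the members was 0.66 in Col-0 and 0.02 in xrn3-8, with 23 called higher and 30 lower in xrn3-8 (of all probe sets 0.268% and 92.8%). The members still lay above the bulk of the array, since the median of all probe sets was then -0.39 in Col-0 and -0.6 in xrn3-8. Centring on hybridization controls gave 62 higher and 5 lower (1.8% and 23.9% of all probe sets), centring on 4 housekeeping genes 64 and 13 (2.29% and 55.9%), and centring on all 27 Bacillus subtilis controls 51 and 17 (1.04% and 75.8%). After quantile normalization 88 were called higher and 1 lower (23.5% and 15.3%). The Col-0 changes, chosen to be 1 or more, had a lowest value of 0.54 under these centrings, which the rule and the size of the shifts fix. The difference between the median of the members and that of all probe sets, which no centring alters, was 1.04 in Col-0 and 0.61 in xrn3-8.

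**Figure D3:**
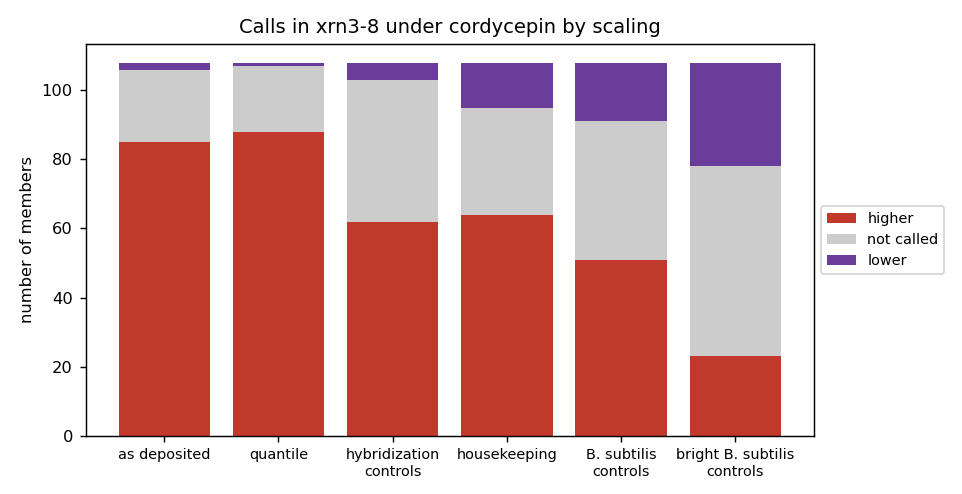
Number of the 108 members called higher, not called and called lower in xrn3-8 from 0 to 60 min (limma, adjusted p under 0.05) for the values as deposited and under 5 other scalings. The number called higher is 85 as deposited, 88 after quantile normalization and 23 after centring on the brighter Bacillus subtilis controls.

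The 41 named members with a known role are described by groups that were assembled after their values were seen. Their counts as deposited are to be read against the 78.7% of all members and the 24.5% of all probe sets called higher in xrn3-8. Under the brighter Bacillus subtilis centring, 21.3% of all members and 0.268% of all probe sets were called higher. Called lower there were 27.8% and 92.8%. No count is a result about a group. Members that rose strongly in both genotypes came first among those called in xrn3-8. AT5G48430, which encodes a protein of the aspartyl protease family, had log2 signals of 6.04, 6.29 and 6.68 before and 7.60, 7.81 and 7.87 after cordycepin in Col-0. In xrn3-8 it had 4.84, 5.07 and 5.40 before and 6.60, 6.58 and 7.07 after (1.65 ± 0.17 SE, limma adjusted p = 9.26e-07). It was lower in every xrn3-8 array than in the Col-0 arrays of the same time, and the groups within xrn3-8 did not overlap. AT2G44010, for which no role is given here, showed the same order. Its log2 signals were 6.63, 6.14 and 6.55, then 7.75, 7.46 and 7.53 in Col-0, and 4.71, 4.75 and 4.48, then 6.04, 6.19 and 6.18 in xrn3-8 (1.49 ± 0.12, adjusted p = 5.95e-08).

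AT2G42350 encodes a RING protein of the ubiquitin ligase type. Its log2 signals in xrn3-8 were 5.68, 5.67 and 5.77 before and 7.16, 7.08 and 7.16 after cordycepin, against 6.06, 6.37 and 6.34 before and 7.65, 7.62 and 7.63 after in Col-0. The change in xrn3-8 was 1.43 ± 0.09 (limma adjusted p = 1.61e-09), and that in Col-0, which chose the gene, was 1.38. The other members of the ubiquitin ligase type also rose in xrn3-8 as deposited, so that 4 of 4 were called higher, where 78.7% of all members were: AT4G17410 by 0.88 ± 0.12, the U-box gene AT3G49810 by 0.85 ± 0.11 and the RING gene AT1G28040 by 0.45 ± 0.12. With the brighter Bacillus subtilis controls as centre 1 of 4 was called higher, where 21.3% of all members were, and AT1G28040 turned to -0.24.

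Of 6 members that encode receptors, kinases or a phosphatase, 5 were called higher in xrn3-8. POL, a protein phosphatase known for its part in maintaining the stem cells of shoot meristems, had 4.46, 4.90 and 5.10 before and 6.0, 6.19 and 6.34 after in xrn3-8 (1.36 ± 0.14, limma adjusted p = 8.67e-07). In Col-0 its log2 signals were 5.30, 5.18 and 5.51, then 6.29, 6.33 and 6.44. The arrays of the 2 genotypes overlapped at 60 min and not at 0 min. POL was the only gene measured of 6 in a list of POL-like phosphatases, and CLV3, the meristem peptide gene and the only one measured of 5 in the CLAVATA-WUSCHEL list, was not called over time in either genotype (0.08 and 0.15). The Raf-like kinase gene AT5G11850 rose by 1.38 ± 0.13 in xrn3-8 and the leucine-rich repeat kinase gene AT4G39270 by 1.18 ± 0.10. AT5G61240, another leucine-rich repeat protein gene (0.70 ± 0.09), and the TIR domain gene AT5G44910 (0.68 ± 0.11) rose less, and AT5G44910 fell below 0 with the brighter Bacillus subtilis controls as centre. POL, AT5G11850 and AT4G39270 were called higher under that centring too.

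The sixth, AT5G39020, encodes a malectin-like receptor kinase and had the largest Col-0 rise of all members. Its log2 signals in Col-0 were 4.68, 4.29 and 4.72 before and 6.54, 6.60 and 6.56 after cordycepin. In xrn3-8 they were 4.42, 4.46 and 4.54 before and 4.47, 4.58 and 4.50 after. The change in xrn3-8 did not pass the test (0.04 ± 0.10, adjusted p = 0.755), and its arrays overlapped between the times. Of 9 genes of the same receptor family fixed in a list, 6 had a named probe set and AT5G39020 was the only member among them. FERONIA (FER), a receptor of cell wall and growth signals, stood at means of 10.55 and 10.70 in Col-0 and 10.23 and 10.23 in xrn3-8, with no call over time in either genotype. AT5G39030, the gene numbered next to AT5G39020, was lower after cordycepin in both genotypes (-0.27 with adjusted p = 0.0493, and -0.32 with adjusted p = 0.0268).

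**Figure D4:**
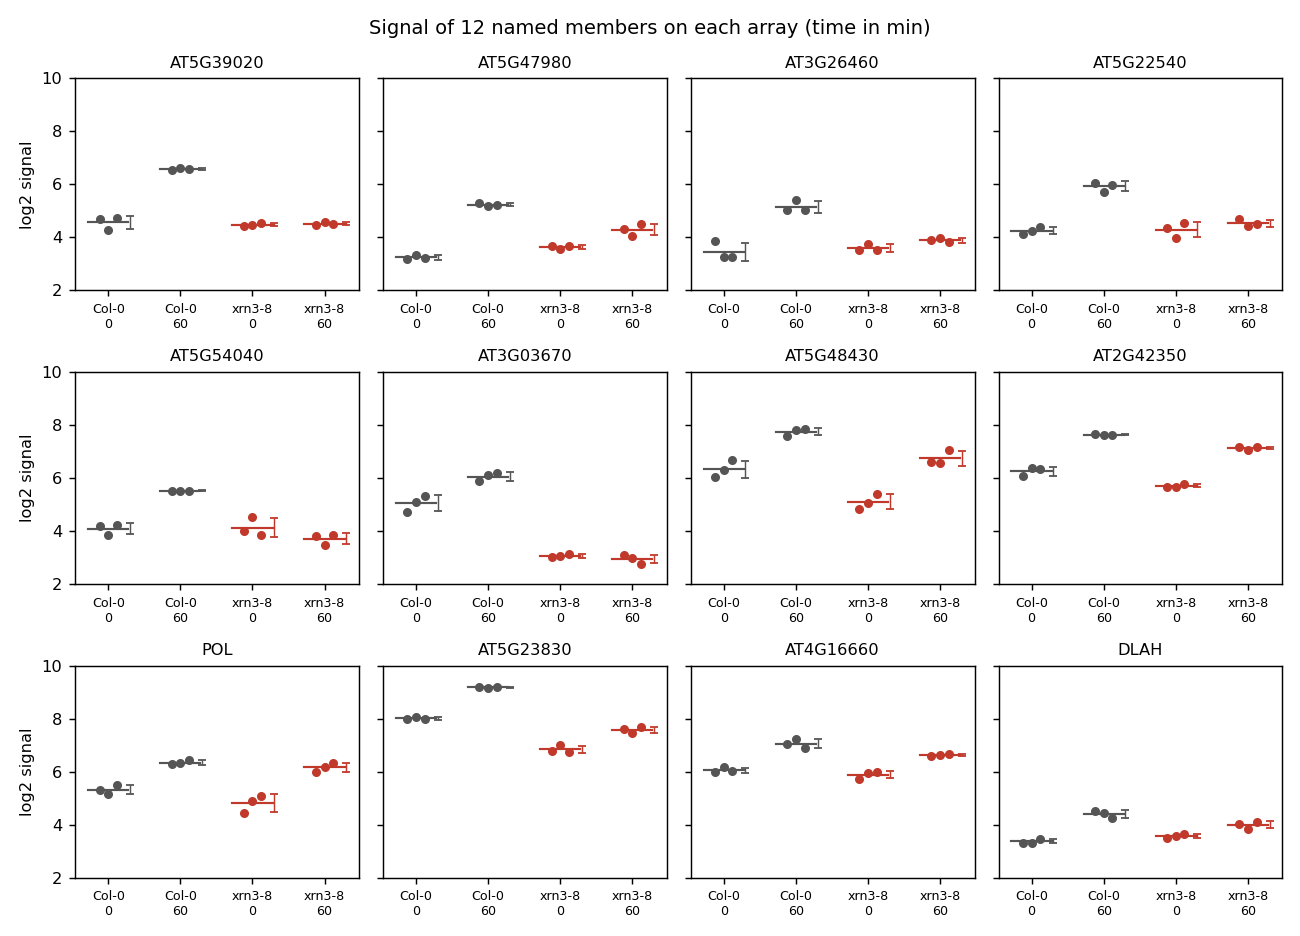
Log2 signal of 12 named members on each of the 3 arrays of the 4 groups (points), with group means (horizontal lines) and SD over 3 arrays (bars at the right). AT5G39020, AT3G26460, AT5G22540, AT5G54040 and AT3G03670 stay low in xrn3-8 at 60 min, while AT5G48430, AT2G42350 and POL rise in both genotypes.

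In 23 members no rise was called in xrn3-8. Of these, 3 were under the arrays' lower quartile in xrn3-8 at both times, where a signal may be no more than background. AT3G26460, whose product belongs to a family of lipid-binding and polyketide cyclase proteins, had 3.85, 3.25 and 3.24, then 5.02, 5.41 and 5.02 in Col-0. Its xrn3-8 values were 3.50, 3.76 and 3.53, then 3.88, 3.98 and 3.8 (0.29 ± 0.15, adjusted p = 0.126). The xrn3-8 arrays did not overlap between the times, and the change was called when the xrn3-8 arrays were fitted alone. For AT5G22540 the log2 signals were 4.12, 4.24 and 4.40, then 6.06, 5.71 and 5.99 in Col-0, and 4.35, 3.98 and 4.53, then 4.67, 4.42 and 4.49 in xrn3-8 (0.24 ± 0.13, adjusted p = 0.155). Without array 3 of xrn3-8 before cordycepin its change was 0.36 and was called.

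AT5G54040, which encodes a protein rich in cysteine and histidine of the C1 domain family, was lower in xrn3-8 after cordycepin. Its log2 signals were 4.2, 3.84 and 4.22, then 5.50, 5.53 and 5.52 in Col-0, and 3.99, 4.53 and 3.84, then 3.82, 3.47 and 3.84 in xrn3-8 (-0.41 ± 0.15, limma adjusted p = 0.0407). The xrn3-8 groups overlapped, and the call was lost without array 2 at 0 min (-0.20) or without array 2 at 60 min (-0.29). The only other member called lower is on an unnamed probe set (-0.24, adjusted p = 0.043). Of the 23, 7 had a value below 0 that did not pass, of which 3 are unnamed (-0.29, -0.05 and -0.02). The named ones were AT1G19025, of a DNA repair metallo-beta-lactamase family (-0.33 ± 0.16, adjusted p = 0.105), the peroxidase gene AT3G03670 (-0.12 ± 0.13), the amino acid transporter family gene AT1G25530 (-0.10 ± 0.14) and AT4G02360 (-0.07 ± 0.09). AT3G43250 (0.03 ± 0.10), the trihelix transcription factor gene AT3G25990 (0.16 ± 0.13) and AT5G59530, an oxoglutarate-dependent oxygenase gene (0.23 ± 0.14), were not called either. A rise was called for AT3G25990 without array 3 at 60 min (0.33) and for AT5G59530 without array 2 at 60 min (0.38). The xrn3-8 means of AT5G59530 were under the arrays' lower quartile at both times and may be no more than background.

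Of 7 members whose products serve the secretory pathway or other membranes, 7 were called higher in xrn3-8 (78.7% of all members and 24.5% of all probe sets were), with changes of 0.48 to 1.27. AT1G52600 encodes a catalytic subunit of the signal peptidase complex, which cuts leader peptides from proteins entering the endoplasmic reticulum. Its log2 signals were 8.07, 7.88 and 8.00, then 9.06, 9.04 and 9.04 in Col-0, and 8.22, 8.30 and 8.29, then 8.85, 9.0 and 9.13 in xrn3-8 (0.72 ± 0.08, limma adjusted p = 4.46e-06). At 60 min the arrays of both genotypes overlapped. The chaperone gene AT4G16660, of the HSP family that folds proteins in the endoplasmic reticulum, had 6.0, 6.18 and 6.02, then 7.07, 7.24 and 6.89 in Col-0, and 5.74, 5.94 and 6.01, then 6.61, 6.62 and 6.67 in xrn3-8 (0.74 ± 0.10).

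AT3G60540, a gene of the beta subunit of the Sec translocon, rose by 0.68 ± 0.12 and AT1G57620, of the p24 cargo receptor family, by 0.64 ± 0.10. AT1G47830, the sigma subunit of the endocytic clathrin adaptor, rose by 0.59 ± 0.09. AT1G72960, of the GTPase family that shapes the endoplasmic reticulum, rose by 0.48 ± 0.09 from a level that was already 0.97 above Col-0, the largest value the cap on xrn3-8 let through. AT3G24840, of the Sec14 lipid transfer family, rose by 1.27 ± 0.13 in xrn3-8, from 3.68, 3.50 and 3.71 to 4.66, 5.08 and 4.96, and its genotypes overlapped at both times. With the brighter Bacillus subtilis controls as centre AT3G60540, AT1G57620, AT1G47830 and AT1G72960 lay below 0. Only AT3G24840 of the 7 was called higher there, where 21.3% of all members were.

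Among 10 members tied to the cell wall, lipids or defence by their families, 8 were called higher in xrn3-8 and 2 were not called. AT5G23830 and AT5G23840, which lie next to each other on chromosome 5, encode small proteins with an ML lipid-recognition domain. AT5G23830 had 8.01, 8.08 and 7.98, then 9.21, 9.18 and 9.19 in Col-0, and 6.80, 7.01 and 6.74, then 7.61, 7.47 and 7.68 in xrn3-8 (0.74 ± 0.09, limma adjusted p = 4.56e-06). AT5G23840 had 4.91, 5.28 and 5.36, then 6.38, 6.18 and 6.29 in Col-0, and 5.35, 5.18 and 5.10, then 5.94, 5.52 and 6.03 in xrn3-8 (0.62 ± 0.13, adjusted p = 0.00148). Both thus rose in xrn3-8, but before cordycepin AT5G23830 stood 1.17 lower in xrn3-8 while AT5G23840 stood 0.03 higher.

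The peroxidase genes AT4G25980 and AT3G03670, also of this group, differed. AT4G25980 rose by 0.67 ± 0.11 in xrn3-8, from 2.82, 2.86 and 2.63 to 3.33, 3.55 and 3.44. Before cordycepin its mean was under the arrays' lower quartile in both genotypes. AT3G03670 had 4.73, 5.08 and 5.33, then 5.88, 6.10 and 6.19 in Col-0, and 3.0, 3.06 and 3.13, then 3.08, 2.98 and 2.76 in xrn3-8, where it stayed near the lower quartile of the arrays. AT1G74010, of the strictosidine synthase-like family (1.16 ± 0.15), AT5G63390, of the O-fucosyltransferase family (1.01 ± 0.09), the methyltransferase family gene AT3G23300 (0.80 ± 0.09) and AT3G23190, related to lesion-inducing proteins (0.36 ± 0.11), completed those called higher. The call of AT3G23190 was lost without array 1 at 0 min (0.33), array 1 at 60 min (0.33) or array 3 at 60 min (0.26). Under the brighter Bacillus subtilis centring 3 of the 10 were called higher, 3 lower, and 5 lay below 0. Of all members 21.3% were called higher and 27.8% lower there.

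Of 6 members that encode metabolic enzymes, 5 were called higher in xrn3-8, where 78.7% of all members were, and their median change was 0.44. AT5G47980 encodes an acyltransferase of the gene cluster that makes the triterpene thalianol, which is formed in roots. Its log2 signals were 3.18, 3.34 and 3.20, then 5.31, 5.18 and 5.21 in Col-0, and 3.66, 3.54 and 3.67, then 4.32, 4.05 and 4.49 in xrn3-8 (0.66 ± 0.10, limma adjusted p = 7.02e-05). All arrays at 60 min were above those at 0 min in both genotypes, and the xrn3-8 arrays at 60 min were below those of Col-0. Of 14 genes in a list of triterpene gene clusters 3 had a named probe set. AT5G47950, another acyltransferase gene of the thalianol cluster and no member, rose from a mean of 4.09 to 4.67 in Col-0 (0.59, adjusted p = 4.47e-05) and stood at 4.49 and 4.64 in xrn3-8 (0.15, adjusted p = 0.192). The difference between its changes in the 2 genotypes was called (-0.44, adjusted p = 0.0423). The root marker EXPA7 also rose in Col-0 alone by the test within each genotype, but the difference between its changes was not called. AT1G66800, a reductase-type gene of the same pathway at 2.71 to 3.09, was not called over time in either genotype.

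DLAH, an acylhydrolase similar to the enzyme that frees linolenic acid for jasmonate synthesis, had 3.33, 3.33 and 3.46, then 4.53, 4.46 and 4.24 in Col-0. In xrn3-8 it had 3.52, 3.58 and 3.67, then 4.03, 3.86 and 4.11 (0.41 ± 0.09, limma adjusted p = 0.00232). The related lipase gene DGL, at a mean of 2.74 to 2.83, was not called in any comparison. Of 13 jasmonate genes in a list, only the defensin gene PDF1.2b had a named probe set, which is marked as able to cross-hybridize. The signal of this probe set rose in Col-0 (0.62, limma adjusted p = 8.29e-04) and in xrn3-8 (0.44, adjusted p = 0.0121). AT1G79470, which encodes inosine monophosphate dehydrogenase of guanine nucleotide synthesis, had 5.64, 5.64 and 5.57, then 6.66, 6.90 and 7.0 in Col-0. In xrn3-8 it rose by 0.34 ± 0.09 (adjusted p = 0.0082), from 5.70, 5.71 and 5.76 to 6.17, 5.93 and 6.08. None of 6 genes of adenosine uptake and salvage had a named probe set. AT5G20550, an oxoglutarate-dependent oxygenase gene, rose by 0.47 ± 0.12 and AT1G09980, of a serine esterase family, by 1.08 ± 0.11. Under the brighter Bacillus subtilis centring AT1G09980 alone of the 6 stayed above 0, and 3 were called lower, where 27.8% of all members were.

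Of 5 nuclear or nucleic acid binding members, 3 were called higher in xrn3-8. The helicase gene AT5G08110 had 4.73, 4.21 and 4.65, then 5.89, 5.49 and 5.83 in Col-0, and 4.59, 4.72 and 4.44, then 5.65, 5.75 and 6.11 in xrn3-8 (1.25 ± 0.15, limma adjusted p = 4.68e-06). Its genotypes overlapped at each time. AT5G46910, known as a histone demethylase of the Jumonji family that acts on a repressive mark, had 6.68, 6.80 and 6.73, then 7.97, 7.82 and 7.60 in Col-0, and 6.62, 6.56 and 6.69, then 7.55, 7.50 and 7.61 in xrn3-8 (0.93 ± 0.09). The CCCH zinc finger gene AT3G06410 rose by 0.75 ± 0.08. AT5G08110 and AT5G46910 were called higher with the brighter Bacillus subtilis controls as centre as well. Among the transport proteins, the magnesium transporter-like gene AT3G26670 (0.75 ± 0.10) and the major facilitator gene AT3G49310 (0.87 ± 0.12) rose, while AT1G25530 (-0.10 ± 0.14) was not called. Under the brighter Bacillus subtilis centring 0 of these 3 were called higher and 1 lower, against 21.3% and 27.8% of all members. TRM31, of the family that recruits a protein organising cortical microtubules, rose by 0.60 ± 0.12 in xrn3-8, from 2.94, 2.81 and 3.04 to 3.43, 3.51 and 3.66, and lay at -0.09 under that centring. Its xrn3-8 mean before cordycepin was under the arrays' lower quartile.

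**Figure D5:**
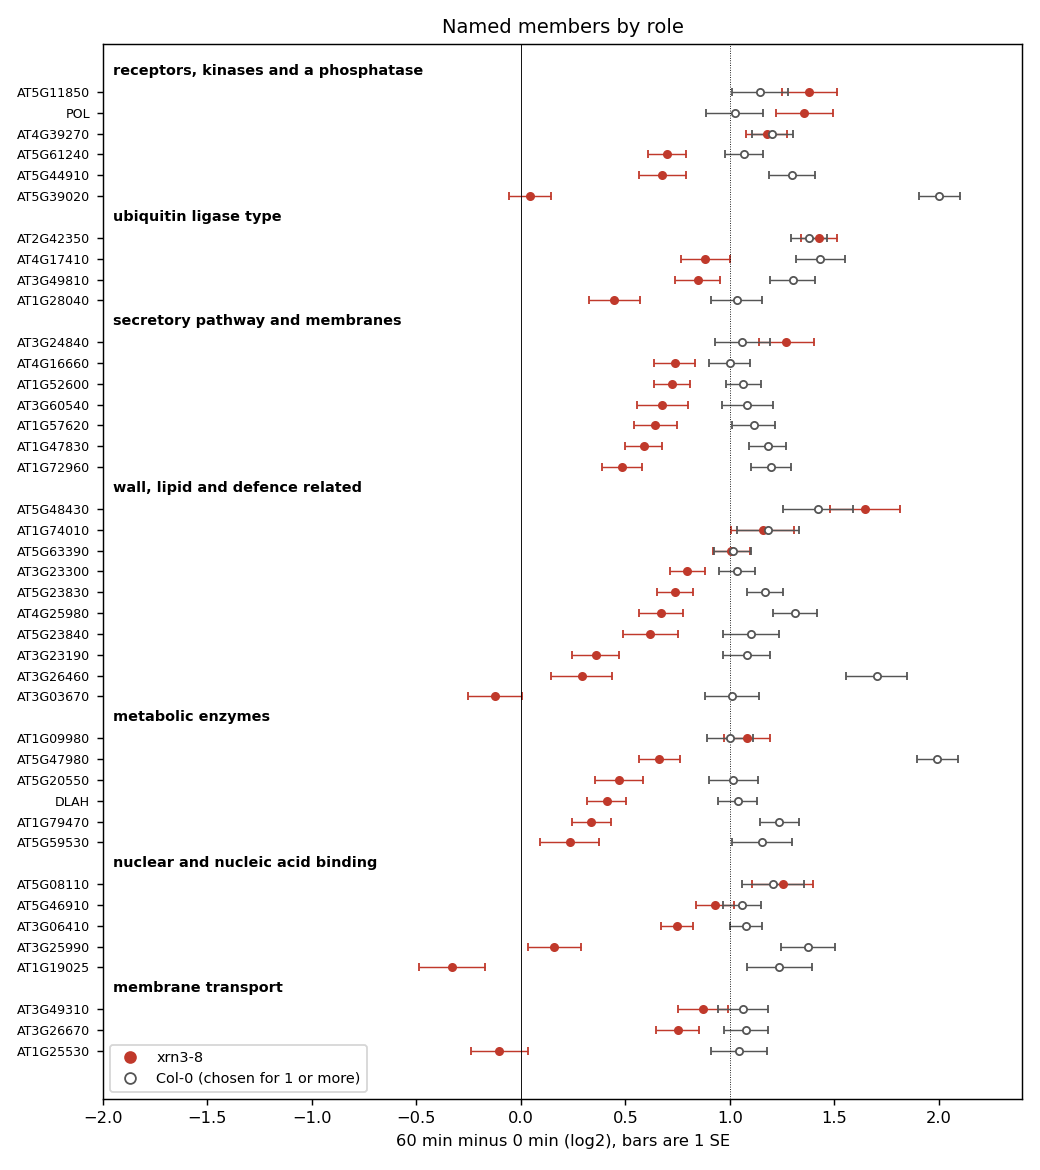
Change from 0 to 60 min (log2) of 41 named members grouped by what their products are known to do, in xrn3-8 (filled) and in Col-0 (open), with bars of 1 SE. The Col-0 points start at 1 by choice; the xrn3-8 points range from -0.33 for AT1G19025 to 1.65 for AT5G48430.

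Set side by side across genotypes, the members are given as a description, since the Col-0 arrays of both times chose them. Before cordycepin the median difference, xrn3-8 minus Col-0, was -0.09 (lowest -2.68, highest 0.97), with 18 called higher (14.3% of all probe sets) and 35 lower (17.6%). In 78 of the 108 it lay within 0.5 of 0. After cordycepin the median difference was -0.55 (lowest -3.33, highest 0.43), with 3 called higher (16.6%) and 86 lower (15.6%), and 28 were lower by 1 or more (1.68%). The arrays of xrn3-8 at 60 min all lay below those of Col-0 in 88 members (19.2% of all probe sets). The interaction was called lower in 48 (2.97%) and higher in 0 (5.08%). Nothing is read from these counts, because a high value in Col-0 at 60 min was what put a probe set in the group.

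In the 55 members with no call between the genotypes before cordycepin (68.1% of all probe sets), 46 were called higher in xrn3-8 under cordycepin and 8 were not called, against 24.5% and 59.6% of all probe sets and 78.7% and 19.4% of all members. In 10 members xrn3-8 was lower by 1 or more before cordycepin (1.41% of all probe sets). All 10 were lower by 1 or more after it as well (1.68%). The rule largely fixes this, since xrn3-8 had to rise by more than the chosen Col-0 rise to narrow the difference. Over time in xrn3-8, 7 of the 10 were called higher, where 78.7% of all members and 24.5% of all probe sets were. AT5G22555 had 4.93, 4.87 and 4.89, then 6.20, 5.92 and 6.27 in Col-0, and 2.70, 2.78 and 2.73, then 2.60, 2.80 and 3.0 in xrn3-8, where it stood below the lower quartile at both times. AT3G23190 had 5.93, 5.72 and 5.50, then 6.85, 6.77 and 6.77 in Col-0, and 3.67, 3.79 and 3.72, then 4.13, 3.85 and 4.27 in xrn3-8. For AT5G59530 the values were 4.51, 4.11 and 4.61, then 5.46, 5.72 and 5.51 in Col-0. In xrn3-8 they were 2.60, 2.91 and 2.92, then 3.16, 2.75 and 3.22, with means below the lower quartile at both times. In these genes each xrn3-8 array was below each Col-0 array at both times. In 7 members xrn3-8 was higher by over 0.5 before cordycepin, where the rule admits only differences below 1. Over time in xrn3-8, 4 of these 7 were called higher, against 78.7% of all members and 24.5% of all probe sets.

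The 64 named members showed little in common in the annotation that the rule did not use. Of these, 63 are protein-coding (98.4%, against 92.6% of 13436 named probe sets) and 1 is a pseudogene (1.56% against 6.87%). On chromosome 5 lie 29.7% of them (22.4% of all named probe sets), and none belongs to the plastid genome. The median gene length was 2035 bases, against 2117 bases for all named probe sets. For 46 named members at least 1 of the flanking protein-coding genes was measured, which gave 58 flanking genes. Among these are 2 members, AT5G23830 and AT5G23840, whose rise in Col-0 the rule fixes. Both are counted in the shares that follow. Of these 58, 22 were called higher in Col-0 under cordycepin (37.9%, against 26.3% of all flanking genes) and 13 lower (22.4%, against 20.2%). The median change of the 58 was 0.18, against 0.07 for all flanking genes. In xrn3-8, 21 of the 58 were called higher and 8 lower (36.2% and 13.8%, against 23.9% and 15.7% of all flanking genes).

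Among the 46, AT5G23830 and AT5G23840 were the only members found next to each other; the 43 members not listed in the probe table could not be placed. AT5G22530, beside AT5G22540, had 2.93, 3.0 and 2.79, then 3.79, 3.91 and 3.37 in Col-0 (0.78 ± 0.12, limma adjusted p = 3.79e-05), and 2.89, 2.89 and 2.75, then 2.96, 2.76 and 2.87 in xrn3-8 (0.02 ± 0.12, adjusted p = 0.907). The difference between its changes in the 2 genotypes was called (-0.76, limma adjusted p = 0.00889). Its mean in Col-0 before cordycepin and in xrn3-8 at both times was under the arrays' lower quartile. A signal there may be no more than background. ATG8H, a gene of autophagosome formation beside AT3G06410, rose in both genotypes, by 0.87 ± 0.09 in Col-0 and 0.71 ± 0.09 in xrn3-8. Other neighbours fell in Col-0, where the share called lower (22.4%) was close to that of all flanking genes (20.2%). AT1G57630, beside AT1G57620, fell in Col-0 from 6.01, 6.04 and 5.93 to 4.91, 4.69 and 4.89 (-1.16 ± 0.09, adjusted p = 2.72e-08) and was not called in xrn3-8 (-0.10). AT4G16670, beside AT4G16660, changed by -1.06 ± 0.13 in Col-0 (adjusted p = 3.48e-06), and AT5G40500 and AT5G40520, on both sides of AT5G40510, by -0.86 ± 0.11 and -0.60 ± 0.12. AT5G40510 itself rose by 0.53 ± 0.12 in xrn3-8, from 4.24, 4.21 and 4.01 to 4.68, 4.49 and 4.87.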

How the data were processed

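Biotin-labelled cRNA from total RNA was measured on 12 Affymetrix 1-colour arrays. For each probe set the authors deposited a log2 signal; how background was corrected and arrays were normalized: not given in the sources used here. The submitters' processing notes name affy 1.48.0 together with limma 3.26.9. Of 22810 probe sets, 64 AFFX controls were kept out. In R 4.3.3, limma 3.58.1 estimated 1 mean for each of the 4 groups from all 12 arrays (lmFit, eBayes; degrees of freedom 8 residual plus 7.964 prior; two-sided), with Benjamini-Hochberg adjustment over 22746 probe sets and a threshold of 0.05. p-values measure the spread between 3 replicates per group, and the number of arrays limits the precision. On simulated data for xrn3-8 under cordycepin over these 22746 probe sets, 74% of 100 changes of 0.5 and 98% of 100 changes of 1 were called, with 7 false calls. Only 200 probe sets were changed there, with independent noise and no shift of whole arrays. The simulation therefore does not cover the shifts over time seen in the controls. Names come from the platform annotation, matched to the TAIR10.1 gene table (13436 of 13513 probe sets with 1 gene).

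The members, gene lists and roles were chosen with earlier results of these data known. Named genes are, among members with 1 gene, those with the largest rise in Col-0, the largest and smallest changes in xrn3-8, the highest and lowest differences after cordycepin, those with a symbol, those closest to the limit, list members and adjacent members. Further members were named for their role, and flanking genes for the member beside them, after their values were seen. Alternatives covered the replicate block, the variance model, a filter on dim probe sets, other scalings, thresholds and left-out arrays. Centring on the brighter Bacillus subtilis controls was added after seeing the data.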

Additional observations from a re-analysis of the deposited data

Results flagged for a closer look

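In 2 members every xrn3-8 array was lower after cordycepin than before it (1.85%, against 17.8% of all probe sets). Every Col-0 array was higher after it, which is how the members were chosen in Col-0. AT1G19025, of a DNA repair metallo-beta-lactamase family, had log2 signals of 4.03, 4.12 and 4.02 before and 3.88, 3.59 and 3.71 after cordycepin in xrn3-8. This change of -0.33 was not called (limma adjusted p = 0.105). In Col-0 its signals were 3.22, 3.56 and 3.91 before and 5.11, 4.49 and 4.80 after. An unnamed probe set had 3.56, 3.48 and 3.54 before and 3.41, 3.31 and 3.15 after in xrn3-8 (-0.237), against 3.18, 3.07 and 3.19 before and 4.42, 4.22 and 4.18 after in Col-0. The difference between the changes of the genotypes was -1.57 for AT1G19025 and -1.36 for the unnamed probe set, given as a description because the Col-0 change chose both. For AT5G47950, an acyltransferase gene of the thalianol cluster that the rule did not choose, the change in xrn3-8 was lower than that in Col-0 by a test of the difference itself (-0.437 ± 0.125 SE, limma adjusted p = 0.0423, 3 arrays per group). Among genes beside members, such a test found a lower change in xrn3-8 than in Col-0 for AT5G22530 (-0.763, adjusted p = 0.00889). The mean signal of AT5G22530 in xrn3-8 was under the arrays' lower quartile at both times and may be no more than background. The same limma test found a higher change in xrn3-8 for AT1G57630 (1.067, adjusted p = 9.51e-05), AT4G16670 (0.937, adjusted p = 0.00378), SEC15B (0.593, adjusted p = 0.0179) and AT1G19020 (0.37, adjusted p = 0.0311), all of which fell in Col-0. Over all probe sets this difference was called higher in 5.08% and lower in 2.97%, so such calls are not particular to genes beside members. The leaf marker LHCB4.2 also fell less in xrn3-8 than in Col-0 (0.593, adjusted p = 0.0118).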

How the results depend on the processing

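The number of members called higher in xrn3-8, 85, became 51 with arrays centred on all Bacillus subtilis controls and 23 on the brighter ones, a centring chosen after seeing the data, and was 5 of the 10 members with a Col-0 rise of 1.5 or more. It was 83 to 87 when each of the 6 xrn3-8 arrays was left out in turn. The number called lower, 2, became 1 with the replicate block, a trended prior, the filter on dim probe sets, quantile normalization or xrn3-8 arrays only. It was 17, 5, 13 and 30 with centring on all Bacillus subtilis, hybridization, housekeeping and brighter Bacillus subtilis controls, 0 at an adjusted p under 0.01 or with a Col-0 rise of 1.5 or more, 7 with the Col-0 rise alone as rule, and 0 to 2 with an xrn3-8 array left out. The median change in xrn3-8, 0.7, became 0.22, 0.44, 0.34 and 0.02 under those 4 centrings and 0.48 with a rise of 1.5 or more, and lay at 0.70 to 0.72 with an xrn3-8 array left out. Repeating the rule gave 19, 34, 19 and 10 members under the 4 centrings, 172 after quantile normalization, 10 with a rise of 1.5 or more, and 100 to 116 with one of the 9 arrays it uses left out, of which 90 to 108 were shared.

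Among members named by the rule and called as deposited or under the alternative, the change in xrn3-8 turned below 0 with all Bacillus subtilis controls for AT5G39020 (-0.44), AT3G25990 (-0.33), AT3G43250 (-0.46), AT5G22555 (-0.42), AT1G28040 (-0.039), AT1G72960 (-0.002), AT3G23190 (-0.13) and DLAH (-0.076). With housekeeping genes it did so for AT5G39020 (-0.32), AT3G43250 (-0.34), AT5G22555 (-0.30) and AT3G23190 (-0.01). With the brighter controls it did so for AT5G39020 (-0.65), AT5G47980 (-0.026), AT3G26460 (-0.40), AT5G22540 (-0.45), AT3G25990 (-0.53), AT5G40510 (-0.16), AT3G43250 (-0.66), AT5G22555 (-0.63), AT1G28040 (-0.24), AT1G72960 (-0.21), AT3G23190 (-0.33), AT5G59530 (-0.46), TRM31 (-0.09), DLAH (-0.28) and AT5G23840 (-0.069). With no call on either side, 3, 4 and 6 more turned below 0 with all Bacillus subtilis, housekeeping and hybridization controls, AT5G22540 and AT5G59530 under all 3. Of members named for their role, AT1G79470 turned with all Bacillus subtilis controls and with housekeeping genes, and AT5G20550 with the former. The call of AT3G26460 was gained with xrn3-8 arrays only (0.29). The cause was not tested. Same-numbered arrays did not deviate together (correlations of -0.086 to 0.075). With so few arrays this cannot show whether the numbers pair them. With the replicate block 85 members were called higher. With the block, AT5G54040 lost its call. Signals below the lower quartile of the arrays limit what could be called for 3 members.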
